A study of Mus musculus with 6 samples.

Results

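Genes of MHC class II antigen presentation were described in whole lung of mice with a mutant BMP receptor transgene. The set held 10 genes: H2-Aa, H2-Ab1, H2-Eb1, H2-DMa, H2-DMb1, H2-Oa, H2-Ob, Cd74, Ctss and Ciita. They were read by the probe sets whose only platform gene symbol was 1 of these names, which gave 17 of the 34958 probe sets with a single symbol. Of the 10 genes 9 had at least 1 such probe set; H2-DMb1 had 0, because the probe sets that read it also carry the symbol H2-DMb2. All 17 passed the filter on dim probe sets, and an intensity is given below on the authors' linear scale.

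RNA came from right lung of 6 FVB/N mice, 1 Affymetrix Mouse Genome 430 2.0 array each, in 3 groups of 2. The R899X high RVSP mice were heterozygous for an SM22-rtTA and a TetO7-BMPR2-R899X transgene and had a strongly raised right ventricular systolic pressure (RVSP). The R899X normal RVSP mice carried the same transgenes with a pressure near normal, and the control mice carried SM22-rtTA alone. Doxycycline feeding began at 4 weeks of age in every group and lasted 9 weeks, up to death at 13 weeks; the series states that all were female, though the label of control 1 gives no sex. The SM22 promoter directs the transactivator to smooth muscle, and which lung cells expressed the transgene was not measured here. R899X names a truncating mutation of BMPR2, a receptor for bone morphogenetic proteins. In bulk lung RNA, fewer cells of a type and less RNA per cell cannot be told apart.

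MHC class II molecules display peptides from the endosomal pathway to CD4+ T cells. The classical chains H2-Aa and H2-Ab1 pair as I-A, and H2-Eb1 is the beta chain of I-E. Newly made dimers are held by the invariant chain (Cd74), which proteases including cathepsin S (Ctss) cut down to a fragment called CLIP. H2-DM then exchanges CLIP for peptide, and H2-DO restrains H2-DM, mainly in B cells. Ciita is the master transactivator of the family and is itself induced by interferon gamma. In mouse lung, dendritic cells, B cells, part of the macrophages and alveolar type 2 cells carry class II.

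Ciita does not bind DNA itself: it acts through factors that sit on an X box and a Y box just upstream of class II genes, and the promoter windows are shown because this shared layout links the members. A RefSeq promoter table of mouse build GRCm38.p6, from 250 bases before to 50 after the gene start, had entries for 7 of the 10 members; H2-Ab1, Cd74 and Ciita had none. The search was for an X core, GNAAC, followed after 12 to 30 bases by a Y box, ATTGG, on either strand. Of all 32851 promoter windows 3.17% held this pair, and it was found in windows of H2-Aa, H2-Eb1, H2-DMb1, H2-Oa and H2-Ob. Capitals mark the X core and the Y box, 5′ to 3′ on the strand of the gene; the letters were settled after the class II sequences had been read, so the matches are a description.
H2-Aa, chr17:34287859-34287916, minus strand: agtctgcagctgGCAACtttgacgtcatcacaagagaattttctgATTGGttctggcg
H2-Eb1, chr17:34305764-34305820, plus strand: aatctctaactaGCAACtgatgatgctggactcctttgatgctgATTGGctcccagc
H2-DMb1, chr17:34153085-34153142, plus strand: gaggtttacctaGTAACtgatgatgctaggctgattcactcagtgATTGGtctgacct
H2-Oa, chr17:34092291-34092348, plus strand: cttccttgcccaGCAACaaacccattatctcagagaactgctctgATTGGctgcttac
H2-Ob, chr17:34238806-34238860, plus strand: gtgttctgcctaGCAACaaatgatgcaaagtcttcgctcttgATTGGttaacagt

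The spacing between both elements was 28 bases in H2-Aa, H2-DMb1 and H2-Oa, 27 in H2-Eb1 and 25 in H2-Ob. Counted from the annotated start, the Y box began at -48 in H2-Aa, -59 in H2-Eb1, -61 in H2-DMb1, -43 in H2-Oa and -57 in H2-Ob. The Y box alone was common, at 37.4% of all windows, and its letters are part of the paired pattern. The H2-DMa windows held a Y box without the pair. Ctss, which lies outside the MHC on chromosome 3, had neither. Its window is shown for a direct repeat, GAAA followed by NN and GAAA again, as in binding sites of interferon regulatory factors. Of all windows 3.44% held the repeat on either strand, and of the members with an entry Ctss alone did; capitals mark it.
Ctss, chr3:95526745-95526794, plus strand: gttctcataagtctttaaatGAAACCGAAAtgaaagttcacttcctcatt

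**Figure D1:**
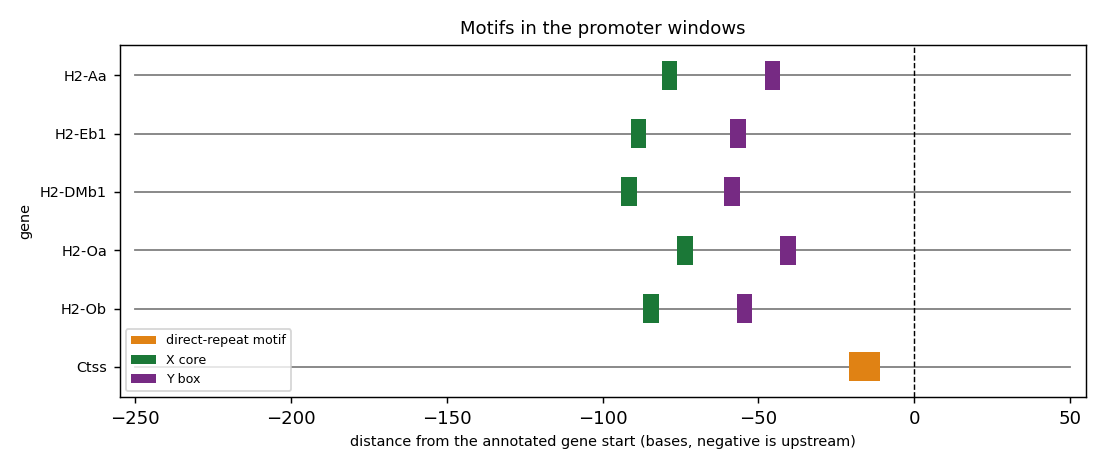
Positions of the X core, the Y box and the direct-repeat motif in the promoter windows of 6 class II genes, in bases from the annotated gene start (dashed line at 0). The 5 class II chains have the X core before the Y box at 25 to 28 bases, and Ctss has only the direct repeat, from -21 to -12.

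These letters come from C57BL/6J, whereas the mice were FVB/N, a strain of another MHC haplotype. Class II chains vary between strains, and the effect of such differences on probe brightness was not tested. Every group had the same strain.

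Median intensity per array ranged from 128 to 141, and 2 mice per group limit the precision of every value. The 3 Bmpr2 probe sets read 302 to 460, 436 to 2170 and 15398 to 19768 over the 6 arrays; whether any reads the transgene is not known, so they do not check the genotype. On the second, R899X normal RVSP 1 had 657 and control 1 had 436, against 1928 to 2170 on the other arrays. Lung identity was clear: the surfactant gene Sftpc read 26212 to 40876 and the airway secretoglobin Scgb1a1 33258 to 51443. The 3′/5′ intensity ratio of the beta-actin control probe sets was 1.64 in R899X normal RVSP 1 and 1.89 in control 1, against 1.27 to 1.45 on the other arrays. The Gapdh ratio did not set these arrays apart: it was 0.721 and 0.740 in R899X high RVSP, 0.700 and 0.875 in R899X normal RVSP and 0.973 and 1.03 in control mice. Cardiac muscle markers summed to 21262 and 10438 in R899X high RVSP, 31077 and 22381 in R899X normal RVSP and 25764 and 22824 in control mice. Whether these differences bear on class II values was not tested.

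H2-Ab1, the I-A beta chain, was read by 3 probe sets. The brightest gave 4139 and 4195 in R899X high RVSP, 4517 and 6966 in R899X normal RVSP and 6051 and 4147 in control mice (replicates 1 and 2 in each group). The high RVSP mice were close together, while each of the other groups held 1 high and 1 lower mouse. The log2 difference of high from normal RVSP was -0.43 ± 0.25 (standard error from limma) and that of high RVSP from control -0.26 ± 0.25. The group order on this probe set was normal RVSP, control, high RVSP. No neighbours in it passed the adjusted test (limma adjusted p = 0.989 for normal RVSP against control and 0.912 for high RVSP against control). The other probe sets gave -0.25 ± 0.28 and -0.28 ± 0.29 for high against normal RVSP.

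H2-Aa, the I-A alpha chain, was read by 4 probe sets of very different brightness. The brightest gave 14755 and 13735 in R899X high RVSP, 12783 and 18381 in R899X normal RVSP and 17886 and 13551 in control mice. R899X normal RVSP 2 and control 1 stood out on all 4, and the high RVSP mice lay within the range of the others on this probe set. The high-minus-normal difference was -0.11 ± 0.22 on it and -0.60 ± 0.38 on the third brightest, where the values were 1317 and 884 in high RVSP, 1324 and 2048 in normal RVSP and 2199 and 1007 in control mice. The dimmest H2-Aa probe set spanned 4.66-fold between control 2 at 55.8 and control 1 at 260, which are 2 mice of 1 group.

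H2-Eb1, the I-E beta chain, had 1 probe set, with 361 and 292 in R899X high RVSP, 430 and 619 in R899X normal RVSP and 479 and 314 in control mice. Both high RVSP mice lay below both normal RVSP mice, and control 2 lay among the high RVSP values. The high-minus-normal difference was -0.64 ± 0.27 (limma unadjusted p = 0.0472, adjusted p = 0.9996), the high-minus-control difference -0.25 ± 0.27 and the normal-minus-control difference 0.40 ± 0.27.

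Cd74, the invariant chain, read 17898 and 16930 in R899X high RVSP, 17671 and 20247 in R899X normal RVSP and 23544 and 15675 in control mice. The controls spanned the range of all other mice. Its differences were -0.12 ± 0.21 for high against normal RVSP and -0.14 ± 0.21 for high RVSP against control. Ctss, the protease that trims Cd74, gave 7378 and 8999 in high RVSP, 8101 and 8067 in normal RVSP and 9173 and 6600 in control mice. Its 3 group means lay within 0.07 of each other on the log2 scale, the smallest span among the 9 measured genes.

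H2-DMa, a subunit of the peptide exchange factor H2-DM, was read by a pair of probe sets. Its brighter probe set gave 1182 and 1204 in R899X high RVSP, 1676 and 2224 in R899X normal RVSP and 2127 and 1257 in control mice. Both high RVSP mice lay below all 4 other mice, although control 2 was near them. The high-minus-normal difference was -0.69 ± 0.26 (limma unadjusted p = 0.0282, adjusted p = 0.9996) and the high-minus-control difference -0.45 ± 0.26 (limma unadjusted p = 0.119, adjusted p = 0.872). The dimmer H2-DMa probe set ran the same way for high against normal RVSP at -0.59 ± 0.38, with 108 and 84.7 in high RVSP against 129 and 181 in normal RVSP. The partner subunit could be read only jointly with H2-DMb2. One joint probe set gave 378 and 406 in high RVSP, 431 and 672 in normal RVSP and 537 and 366 in control mice. It differed by -0.44 ± 0.27 between high and normal RVSP, and the other joint probe set by -0.21 ± 0.18. H2-DMb2 had its own brightest probe set with the opposite sign, at 717 and 621, 299 and 527, and 358 and 373 in the high RVSP, normal RVSP and control mice, a high-minus-normal difference of 0.72 ± 0.27 (limma unadjusted p = 0.0268, adjusted p = 0.9996). Both high RVSP mice lay above all 4 other mice for H2-DMb2, which is no member of the set.

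H2-Oa and H2-Ob form H2-DO, the modulator of H2-DM. H2-Oa read 225 and 269 in R899X high RVSP, 227 and 275 in R899X normal RVSP and 227 and 207 in control mice. H2-Ob, the B-cell-rich beta chain, read 860 and 731 in high RVSP, 549 and 812 in normal RVSP and 617 and 733 in control mice, and the groups overlapped. Their high-minus-normal differences were -0.02 ± 0.23 and 0.24 ± 0.23. A dim probe set shared by H2-Ob and the gene model Gm20506 was brightest in R899X high RVSP 1 at 151, against 55.8 to 87.1 in the other 5 mice. R899X high RVSP 1 was also the mouse with the highest H2-Ob value.

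Ciita was read by 3 probe sets. The brightest gave 168 and 153 in R899X high RVSP, 221 and 304 in R899X normal RVSP and 524 and 159 in control mice. Its 3.43-fold range exceeded that of the brightest probe set of each of the other 8 genes, and the control mice alone covered nearly all of it. The high RVSP mice lay below both normal RVSP mice, at a difference of -0.64 ± 0.47, and the high-minus-control difference was -0.80 ± 0.47 (limma adjusted p = 0.872). The second probe set gave 136 and 121, 130 and 329, and 210 and 111 in the high RVSP, normal RVSP and control mice, a high-minus-normal difference of -0.64 ± 0.44. The third lay between 27.9 and 165 and differed by -0.01 ± 0.66. Whether the Ciita probe sets differ from one another was not tested.

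The order of group means differed between genes. On the brightest probe set of each gene, from high to low, it was normal RVSP, control, high RVSP for H2-Ab1, H2-Eb1 and H2-DMa. For H2-Aa, Cd74 and Ciita it was control, normal RVSP, high RVSP. Other probe sets of H2-Aa, H2-Ab1 and Ciita did not all keep these orders. Control was lowest on the second brightest of H2-Aa and the dimmest of H2-Ab1, and normal RVSP was highest on the second brightest of Ciita. H2-Ob and Ctss had their highest mean in high RVSP, and H2-Oa had normal RVSP first and control last. No neighbours in any of these orders passed the adjusted test.

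**Figure D2:**
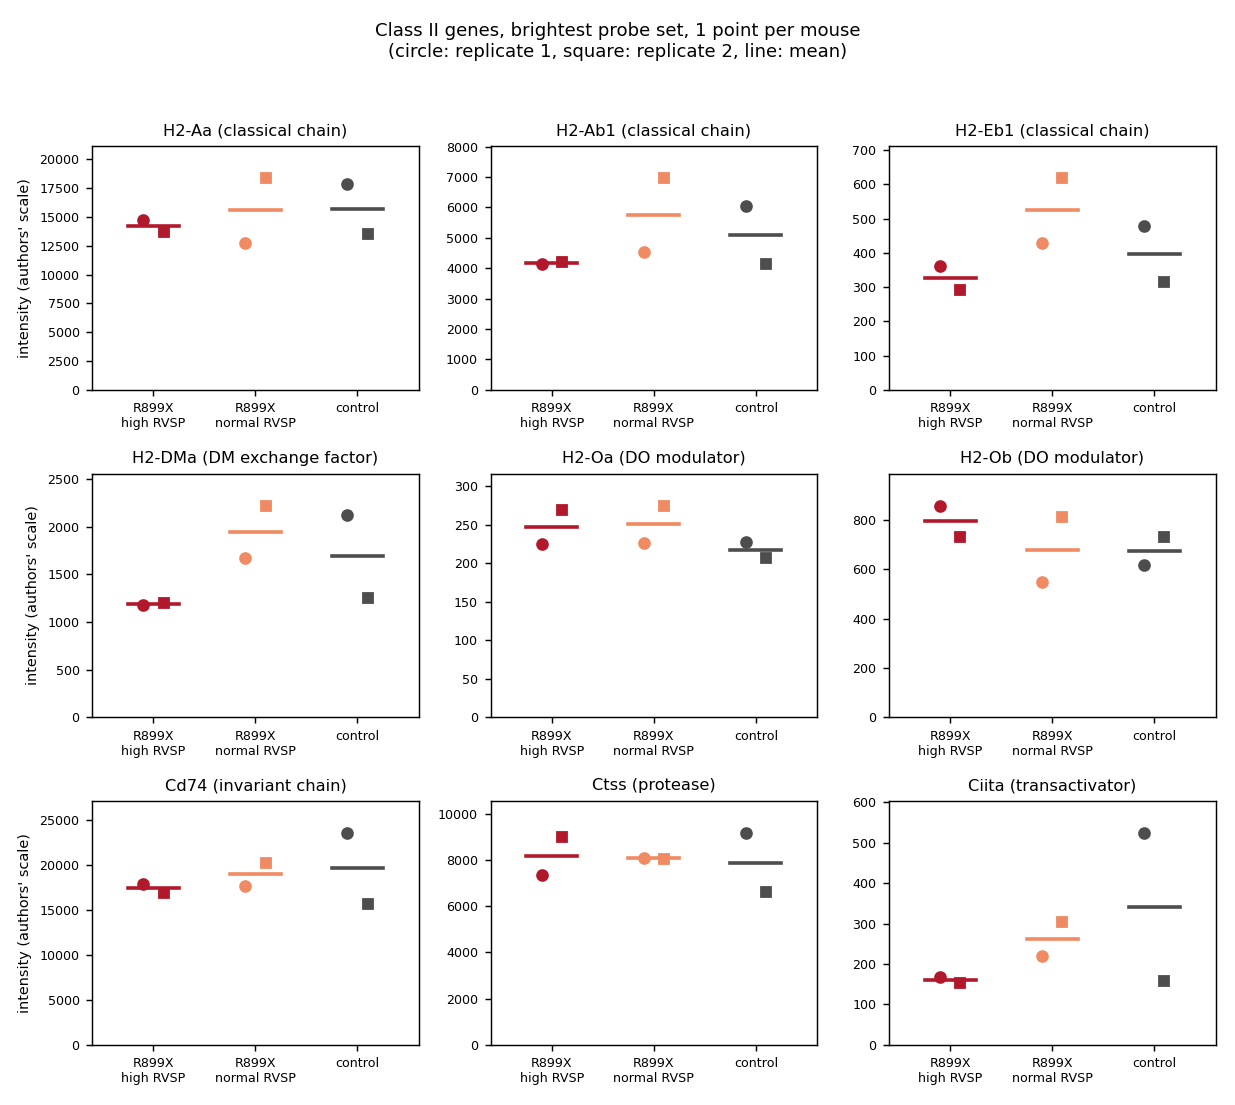
Intensity (authors' linear scale, from 0) of the brightest probe set of 9 class II genes in the R899X high RVSP, R899X normal RVSP and control mice, 1 point per mouse and a line at each mean. The high RVSP mice are close together for H2-Ab1, H2-DMa and Ciita, while controls run from 159 to 524 for Ciita.

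High RVSP was set against normal RVSP among transgenic mice to ask what goes with raised pressure. Of the 17 class II probe sets 15 were lower and 2 higher in R899X high RVSP, where 48.3% of all 27023 tested probe sets had a difference below 0 and 51.7% above it. The median difference was -0.28, against 0.01 over all probe sets tested, and -0.12 with only the brightest probe set of each gene. In 6 of the 17 both high RVSP mice lay below both normal RVSP mice, and in 0 above them; over all probe sets 15.5% separated downwards and 16.7% upwards. With limma 0 of 17 passed Benjamini-Hochberg adjustment at 0.05 over all probe sets, where 0% were called, and the ordinary linear model also gave 0. At an unadjusted p under 0.05 there were 2 lower, H2-Eb1 and H2-DMa, and 0 higher, with 0.951% of all probe sets lower and 1.67% higher at that level. The median rested on R899X normal RVSP 2: it was 0.01 when that mouse was left out and -0.74 when R899X normal RVSP 1 was. Both R899X normal RVSP 1 and control 1 were then left out, arrays that earlier results of these data set apart. The median stayed at -0.74, because control 1 does not enter the high-minus-normal difference. H2-Ab1 was at -0.74 and H2-DMa at -0.89. Normal RVSP and control then had 1 array each, assumed to vary like the high RVSP pair and probe sets of like intensity. No spread within these 2 groups was measured, so passing counts of this setting are not read as evidence. Cardiac muscle markers ran the same way in the comparison of all arrays: 7 of 7 tested had the lower mean in high RVSP, with a median of -0.96, 7 at an unadjusted limma p under 0.05 and 0 past adjustment. Their part in the class II values was not tested.

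Against controls, R899X high RVSP had 12 of 17 lower, with a median of -0.18 and differences from -0.80 for Ciita to 0.23 for H2-Ob; over all tested probe sets 50.7% were lower and 49.3% higher. Only H2-DMa had both high RVSP mice below both controls, 1 of 17, when 18.2% of all probe sets separated that way and 19.1% upwards. Passing counts were 0 after adjustment (0% overall) and 0 at an unadjusted limma p under 0.05 (2.01% of all lower, 3.64% higher), and 0 with the ordinary linear model. Here the value depended on which control remained: the median was 0.15 without control 1 and -0.54 without control 2.

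R899X normal RVSP had 11 of 17 higher than control with a median of 0.16, when 49.9% of all probe sets were higher and 50.1% lower. In 0 of 17 did the groups separate, while 14.4% of all separated upwards and 15.1% downwards. Again 0 passed after adjustment (0% overall), and 0 at an unadjusted limma p under 0.05 (1.71% of all higher, 2.64% lower). The median was 0.61 when control 1 was left out, -0.14 when control 2 was and -0.14 when R899X normal RVSP 2 was. With both R899X normal RVSP 1 and control 1 left out, which sets 1 array against 1, it was 0.87. Then 4 class II probe sets passed, H2-Ab1 among them at 0.75 (limma adjusted p = 0.0335), and 0.485% of all probe sets did. For all R899X mice against control, 9 of 17 were higher and 8 lower, the median was 0.06 and 49.6% of all probe sets were higher and 50.4% lower. Here 0 passed (0% overall), 0 had an unadjusted limma p under 0.05 (3.21% of all higher, 2.71% lower), and 0 separated (7.52% upwards, 7.71% downwards). Its median was 0.33 without control 1 and -0.32 without control 2. With R899X normal RVSP 1 and control 1 both left out, control had 1 array, and passing counts are not read as evidence here either. These comparisons share control mice.

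**Figure D3:**
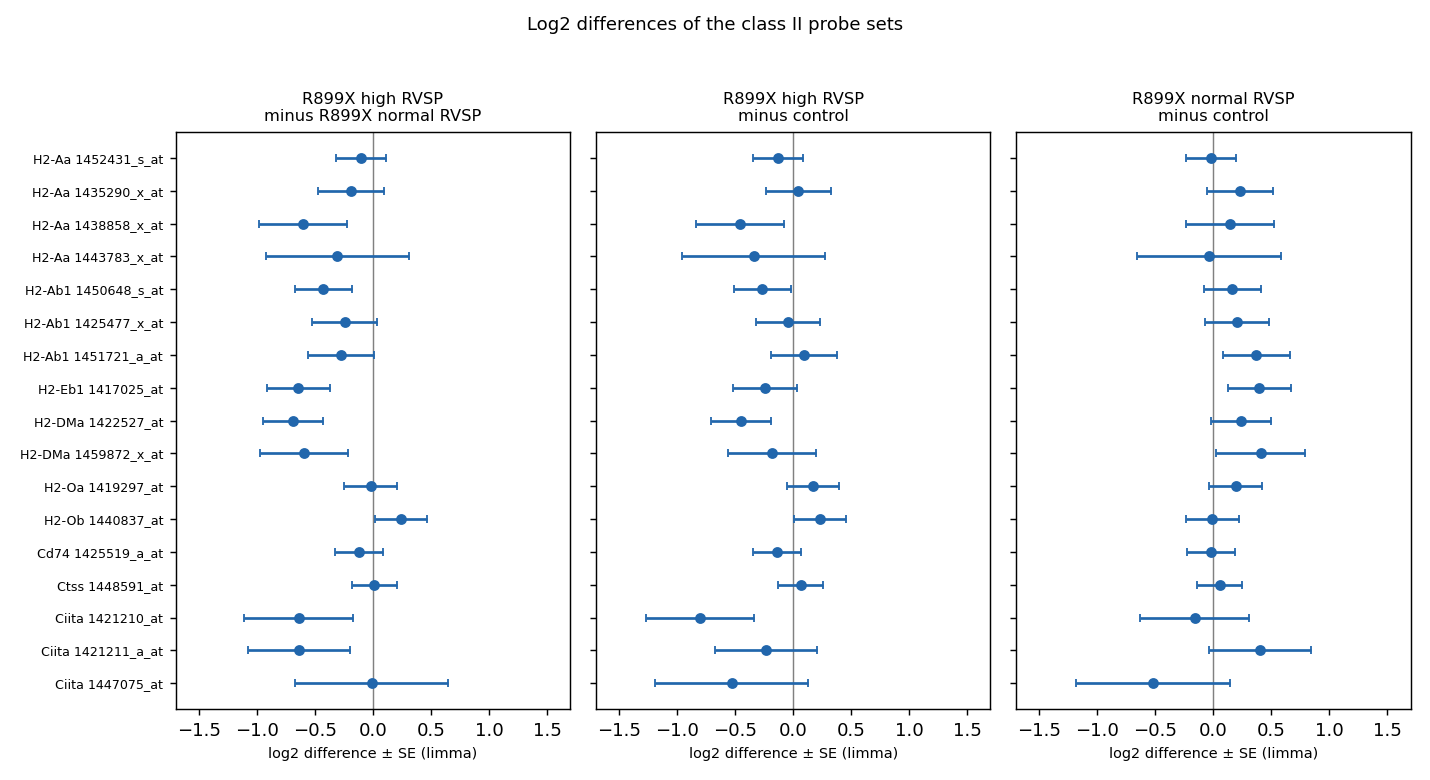
Log2 differences with limma standard errors of the 17 class II probe sets, for R899X high minus normal RVSP, R899X high RVSP minus control and R899X normal RVSP minus control. For high minus normal RVSP 15 of 17 points are below 0, and 0 probe sets passed adjustment in any panel.

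Mice of the same group differed widely in class II values. R899X normal RVSP 2 and control 1 were the brightest 2 of the 6 arrays for 13 of the 17 probe sets and for 6 of the 9 brightest probe sets, where 6.15% of all tested probe sets had this pair on top; the pair was singled out after its values were seen. R899X normal RVSP 2 led in 9 of these 13 and control 1 in 4. The probe sets without the pair on top were those of H2-Oa, H2-Ob, Ctss and the dimmest of Ciita. The mean deviation of the 9 genes from their 6-array mean was -0.13 and -0.16 in R899X high RVSP, -0.07 and 0.31 in R899X normal RVSP and 0.30 and -0.24 in control mice. The residual standard deviation within groups was 0.39 at the median of the class II probe sets and 0.22 at the median of all tested, and 16 of 17 class II probe sets exceeded 0.22.

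The share of probe sets with this pair on top differed between probe set types. Affymetrix names end in _x_at or _s_at where probes may also bind other transcripts. Of the probe sets ending in _x_at, 16% had R899X normal RVSP 2 and control 1 on top, against 5.02% of those ending in plain _at, 6.68% of _a_at and 8.57% of _s_at. All 5 class II probe sets of type _x_at, 2 of 2 of type _s_at and 3 of 3 of type _a_at showed the pair on top, and so did 3 of 7 plain _at, those of H2-Eb1, H2-DMa and Ciita. The mean deviation of all _x_at probe sets was -0.05 and -0.01 in R899X high RVSP, 0.01 and 0.03 in R899X normal RVSP and 0.10 and -0.09 in control mice. The part of probe type in the class II values was not tested.

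Genes known to be induced by interferon gamma were measured beside Ciita. Interferon-inducible GTPases, which defend cells against intracellular microbes, had the pair on top in 8 of 8 measured genes. Iigp1 read 1266 and 1692 in R899X high RVSP, 2594 and 5528 in R899X normal RVSP and 9528 and 1371 in control mice. Gbp7 gave 3348 and 3182, 4874 and 8794, and 12329 and 3520 in the same order of groups. The mean deviation of the GTPases was -0.85 and -0.65 in high RVSP, 0.07 and 0.84 in normal RVSP and 1.32 and -0.74 in control mice, so the mice that stood high for class II stood high here. In 8 of 8 the high RVSP mean was below that of normal RVSP, with a median of -1.21, and 0 passed with limma after adjustment (3 at an unadjusted p under 0.05).

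Class I presentation genes, among them B2m and H2-D1, had a median of -0.26 for high against normal RVSP, with 8 of 9 lower, 0 past adjustment and 2 at an unadjusted limma p under 0.05, and the pair on top in 5 of 9. Regulators of class II transcription and interferon gamma signalling were divided: of 12 measured genes 7 were higher and 5 lower in high than in normal RVSP with a median of 0.07, and 0 passed. Rfx5, which binds the X box and was added to the named genes after its values were seen, read 632 and 697 in R899X high RVSP, 709 and 805 in R899X normal RVSP and 776 and 614 in control mice. Irf1, an activator of Ciita, read 2524 and 2275, 3222 and 3564, and 3536 and 2797 in the same groups and was the 1 member of this list at an unadjusted limma p under 0.05.

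Lysosomal processing and class II turnover genes had a median of -0.01 over 15 measured, with 6 higher and 9 lower and 0 past adjustment or at an unadjusted limma p under 0.05. Cst3, an inhibitor of cathepsins, read 18757 and 18106 in R899X high RVSP, 23863 and 17114 in R899X normal RVSP and 22485 and 18740 in control mice. Cathepsin C (Ctsc) and cathepsin B (Ctsb) were bright too, with high-minus-normal differences of 0.03 ± 0.19 and -0.19 ± 0.16. Costimulatory genes had 3 higher and 4 lower of 7 tested and a median of -0.01, with 0 passing; Cd40, which T cells engage on presenting cells, differed by -0.08 ± 0.27. Of the other class II locus genes, H2-Ea-ps, given as H2-Ea on the platform and annotated by RefSeq as a transcribed pseudogene of the I-E alpha chain, read 763 and 998, 922 and 1034, and 1294 and 601 in the high RVSP, normal RVSP and control mice, while H2-Eb2 and Btnl2 were below the filter. H2-Eb2 read 11.9 and 15.9, 74.0 and 93.9, and 98.0 and 47.0 in the same groups, untested.

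**Figure D4:**
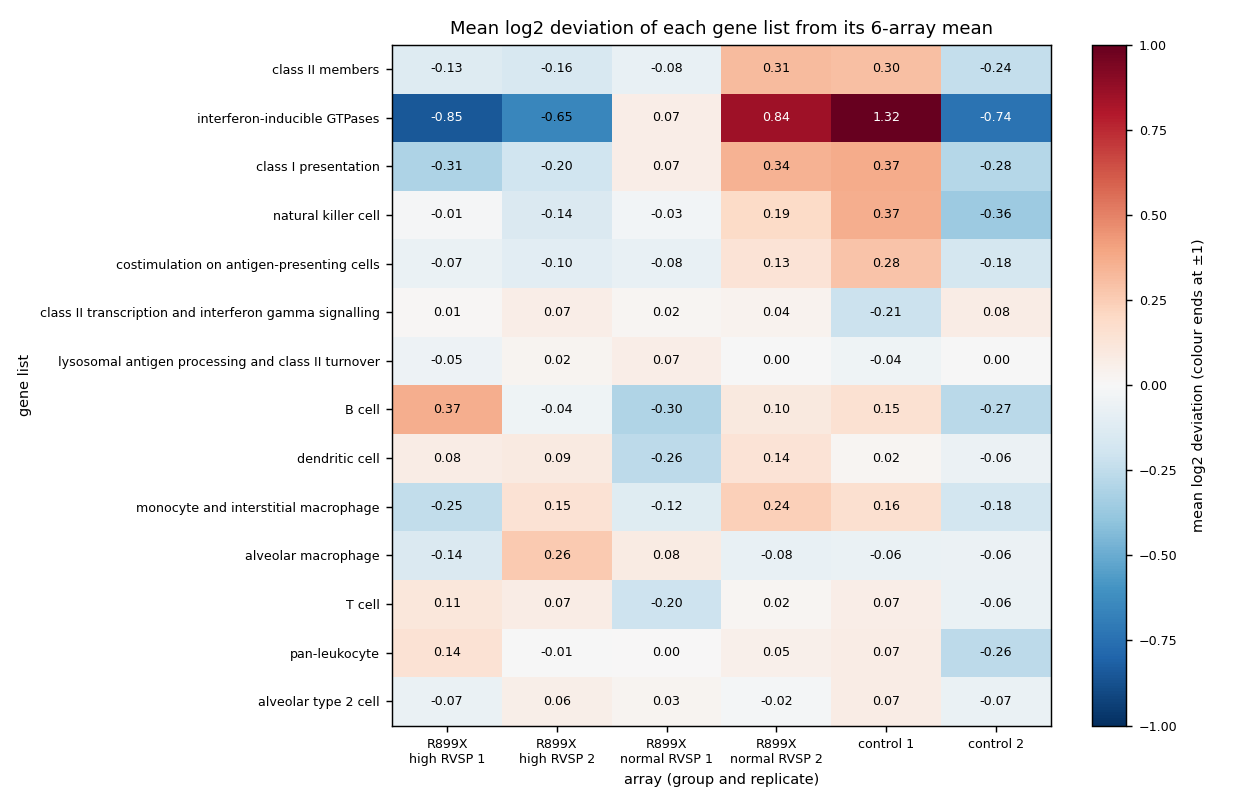
Mean log2 deviation of class II genes and 13 other gene lists from their 6-array means, by array, with the R899X high RVSP mice left, the R899X normal RVSP mice in the middle and the controls right. Class II genes and interferon-inducible GTPases are both highest in R899X normal RVSP 2 and control 1. So are the class I, natural killer cell, costimulation, and monocyte and interstitial macrophage lists, while the B cell list is highest in R899X high RVSP 1.

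Markers of cells that carry class II were counted for the same pair, which was on top in 6.15% of all tested probe sets. B cell markers, 11 measured, summed to 8734 and 5814 in R899X high RVSP, 4678 and 6622 in R899X normal RVSP and 6965 and 5023 in control mice, with Ms4a1 (CD20) at 2341 in R899X high RVSP 1 and 845 to 1694 in the other mice; 0 markers passed with limma in any comparison and 1 had the pair on top. Dendritic cell markers, 9 measured with Itgax and Zbtb46 the brightest, summed to 4538 and 4271, 3585 and 4274, and 4111 and 3898 in the same groups, with 1 of the 8 past the filter showing it. Alveolar type 2 markers, led by Sftpc, summed to 137860 and 143015, 152370 and 138313, and 167215 and 129220 in high RVSP, normal RVSP and control mice, and 0 of 9 had the pair on top. Alveolar macrophage markers, led by Chil3, summed to 13688 and 22516, 18120 and 18243, and 21620 and 19633 in the same groups, again with 0 of 8.

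Monocyte and interstitial macrophage markers summed to 9284 and 10956, 11048 and 11397, and 13844 and 9189 in high RVSP, normal RVSP and control mice, with the pair on top in 2 of 8. Natural killer cell markers, whose cells release interferon gamma, had it in 4 of 6: Gzma, a granzyme, read 1666 and 1793 in R899X high RVSP, 2122 and 2609 in R899X normal RVSP and 3877 and 1624 in control mice. T cell markers had it in 0 of 8 and pan-leukocyte genes in 1 of 6. The lowest reading of any B cell marker was 67.2, of any dendritic cell marker 24.5 and of any T cell marker 23.3. The dendritic and T cell values came from Batf3 and Cd4, which were below the filter. In each list 0 markers passed adjustment in any comparison, and the part of cell composition in the class II values was not tested.

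By pattern over the 6 arrays, 10000 genes were compared with the mean profile of the 9 class II genes. The 8 of highest Pearson correlation were Hadhb (0.999), Cnpy2 (0.981), Dhps (0.976), Qdpr (0.967), Mdh1 (0.967), Gbp6 (0.965), Tmem109 (0.962) and Ung (0.961), given as a description over 6 arrays of 6 mice. Of these, 5 were read by a probe set ending in _x_at, a type that makes up 6.22% of those tested. For Hadhb, a mitochondrial fatty acid oxidation enzyme, the other probe sets correlated with the profile only from -0.05 to 0.36. The other probe set of Dhps gave -0.65 and that of Qdpr -0.41. Gbp6, an interferon-inducible GTPase read by a plain _at probe set, had 1 other probe set, with a correlation of 0.87. For Mdh1 the other probe sets ran from 0.15 to 0.72, for Tmem109 from -0.79 to 0.91 and for Cnpy2 from -0.55 to 0.13. Gbp6 read 842 and 717 in R899X high RVSP, 1337 and 2723 in R899X normal RVSP and 4075 and 732 in control mice. The lowest correlations belonged to Gatad2a (-0.988), Kcnk5 (-0.982), Wdr75 (-0.981) and Per1 (-0.971), a clock gene. The other probe set of Wdr75 gave 0.59, and those of Gatad2a ran from -0.76 to 0.47.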

How the data were processed

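The authors deposited 1 intensity per probe set and array on a linear scale. Per the labels' protocols, lungs were flushed, RNA was column-purified and the label followed the manufacturer's manual; the sources used here give no summarising algorithm. With R 4.3.3 and limma 3.58.1, values became log2(intensity + 16), which understates differences of dim probe sets. The 64 control probe sets and the dimmest 40% were left out, leaving 27023. The linear model had a mean for each group over the 6 arrays, leaving 3 residual degrees of freedom, with an intensity trend; 4 contrasts were tested two-sided with Benjamini-Hochberg adjustment at 0.05. With 2 arrays in each group an exact permutation p is at least 0.333, so none was used. The procedure was tested on data simulated from its own fitted spread, with changes larger than any class II difference over all 6 arrays. Recovery of changes as small as those of class II was not tested. Members were always named, and from each gene list up to 4 genes of highest mean; likeness was correlation with the mean member deviation, for genes with a standard deviation of at least 0.5 times its own. Lists use each gene's brightest probe set. Members, lists and tests were chosen with earlier results of these data known. Replicate numbers follow accession order. Alternatives covered offset, filter, normalization, test and arrays left out.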

Additional observations from a re-analysis of the deposited data

Results flagged for a closer look

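Among the 4 R899X mice, Dixon's ratio over log2 values set R899X normal RVSP 2 apart on 2 of 17 class II probe sets. On the brightest H2-Ab1 probe set it read 6966, against 4139 to 4517 in the other 3 R899X mice. On the second Ciita probe set it read 328.7, against 121 to 136. Chance flags about 1 in 20 groups, and probe sets of 1 mouse are not independent.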

How the results depend on the processing

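No paired analysis was possible because the labels give no replicate numbers, litters or batches. Of the alternative values 677 were counted as the same, 56 reversed, 20 moved and 3 newly passed. For a single gene, the same meant an unchanged direction and side of the threshold. A class II median was the same if it shifted by less than 0.39, so medians that changed sign are among the 677. Counts of probe sets passing were the same if equal or close. The cause of these changes was not tested. Values below are log2 differences for high against normal RVSP (A), high RVSP against control (B), normal RVSP against control (C) and all R899X against control (D). With each array centred on its median, Ctss in A was -0.069, and in C Cd74 was 0.044, H2-Aa 0.044 and H2-Ob 0.056. With only the compared arrays, 1 of all probe sets passed in B. Leaving out both R899X normal RVSP 1 and control 1 left normal RVSP and control with 1 array each and no measured spread. Passing counts of that setting, given next, are therefore no evidence of differences or of an excess of class II calls. The 3 newly passed values came from that setting. Without both R899X normal RVSP 1 and control 1, all probe sets passing were 56 in A, 313 in B, 131 in C and 228 in D, and class II ones 2 in A, 4 in C and 2 in D; class II medians were -0.74 in A and 0.87 in C. Under that setting Cd74 was 0.15 in B, 0.37 in C and 0.26 in D, Ciita 0.011 in B, 0.87 in C and 0.44 in D, and H2-Aa 0.071 in B, 0.44 in C and 0.26 in D. H2-Ab1 was 0.0071 in B and 0.38 in D, H2-DMa 0.37 in D, H2-Eb1 0.047 in B, and H2-Ob -0.034 in A and 0.14 in C. Leaving out 1 array at a time gave 0 class II calls in all comparisons, and all probe sets passing ran from 0 to 43 in A, 0 to 2 in B, 0 to 4 in C and 0 to 6 in D. Class II medians ran from -0.74 to 0.0084 in A and -0.14 to 0.61 in C. Cd74 ran from -0.44 to 0.15 in B, -0.32 to 0.27 in C and -0.38 to 0.21 in D. Ciita ran from -1.61 to 0.011 in B, -0.97 to 0.65 in C and -1.29 to 0.33 in D. Ctss ran from -0.13 to 0.15 in A, -0.17 to 0.30 in B, -0.18 to 0.29 in C and -0.18 to 0.30 in D. H2-Aa ran from -0.37 to 0.16 in A, -0.33 to 0.071 in B, -0.28 to 0.24 in C and -0.28 to 0.12 in D. H2-Ab1 ran from -0.54 to 0.0071 in B, -0.15 to 0.47 in C and -0.32 to 0.22 in D. H2-DMa ran from -0.14 to 0.61 in C and -0.48 to 0.27 in D, and H2-Eb1 from -0.54 to 0.047 in B and -0.22 to 0.37 in D. H2-Oa ran from -0.15 to 0.11 in A, and H2-Ob from -0.034 to 0.52 in A, -0.29 to 0.27 in C and -0.027 to 0.25 in D. The lone array of a reduced group was assumed to vary like the others; signal over background limits the dimmest probe sets of H2-Aa and Ciita.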
